A study of Homo sapiens with 24 samples.

Results

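Endothelins and adrenomedullins are small secreted peptides that act on G protein-coupled receptors and set the tone and leakiness of vessels and airways. EDN1 and EDN2 encode the precursors of endothelin-1 and endothelin-2, which the protease encoded by ECE1 cuts to the active form, and EDNRA and EDNRB encode their receptors. ADM encodes adrenomedullin and ADM2 encodes the related peptide also called intermedin. Their receptor is built from the CALCRL protein and an accessory protein: with RAMP2 it binds adrenomedullin, and with RAMP1 it forms the receptor of calcitonin gene-related peptide.

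These 10 genes were represented by 17 probes of the 34127 probes on the array, taken by the gene name in the scanner files with every probe of a gene kept. EDN1 and ADM2 were chosen by their measured values, EDN1 being lower and ADM2 higher with Pirfenidone in H1975 on these same arrays, so their H1975 values with the drug are given as a description with no test. The other genes were chosen as their relatives, processing enzyme and receptors.

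A549 and H1975 are established cell lines from human non-small cell lung cancer. Each was treated with Pirfenidone, an antifibrotic drug, at 0.75 mg/ml or with the matching volume of PBS, and total RNA was taken after 6 h or 24 h. The 8 groups held 3 arrays each, 24 in all, and each array measured 1 RNA sample in 1 color. The labels do not say whether replicates were separate cultures, so p-values measure the spread between these samples, which may be technical.

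All levels below are log2 intensities relative to the 75th percentile of the array. They can be set against other groups for the same probe, not against another probe. Only probes that every array of some group (3 of 3) measured well above background were tested. A probe passed, or was called, when its limma adjusted p did not exceed 0.05 and its log2 difference was at least 1 in size (a fold of 2). Of the 17 probes, 13 probes of 8 genes were tested among 23827 probes in all.

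The arrays came from 7 slides and 4 array dates. An array date here is the date in the name of the deposited array file, numbered 1 to 4, and what was done on it is not stated. Every Pirfenidone array had 1 PBS array of its line, time and date, which allowed differences within a date. In H1975 at 6 h the replicate numbers did not follow the dates, so pairs were taken by date. The A549 pair of date 1 at 24 h, replicate 3, stood apart for some member probes, not for all. For EDN1, EDN2 and the downstream ADM2 probe its difference had the opposite sign to both other pairs: ADM2 (A_33_P3413905) was -1.19 against 0.29 and 0.14, and EDN1 (A_23_P214821) was 0.47 against -0.28 and -0.70. For EDNRA (A_24_P217572) in A549 at 24 h the date 3 pair, at 1.57, lay as far out as the date 1 pair, at -1.46. Values given without the A549 date 1 pair are not independent of these differences. The PBS array of date 3 in H1975 at 24 h was on another slide than its Pirfenidone partner. Within a slide, the place of an array went with treatment and time throughout, so place and treatment cannot be told apart. In bulk RNA, fewer cells with a transcript and less of it per cell cannot be told apart either. Each of 5 epithelial markers exceeded background on 12 of 12 arrays in either line. Of the endothelial markers 1 of 5 was above it on all A549 arrays and 3 of 5 on all H1975 arrays, with 4 and 2 above it on none. Of the fibroblast and smooth muscle markers 2 of 5 were above it on all arrays of each line, and of the leukocyte markers 3 of 5 in A549 and 2 of 5 in H1975.

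The probes that carry the main values are shown by stretches of 30 bases of their 60, with hg19 positions from the array files. Whether a position lies in an exon or a UTR was not analysed here. The pair of ADM2 probes is shown because the probes differ in response. Capitals mark AATAAA, the letters of a polyadenylation signal.
ADM2 A_33_P3413905 (chr22:50924807-50924866, plus strand, bases 24 to 53): accactctcttgAATAAAgcttttctcacc
ADM2 A_33_P3413910 (chr22:50921310-50921369, plus strand, bases 1 to 30): gcagcccccacagctatggctgaggtgggg
EDN1 A_23_P214821 (chr6:12296672-12296731, plus strand, bases 1 to 30): aggcgcctggcacatttcagggagaaactc
EDN2 A_23_P312150 (chr1:41944456-41944515, minus strand, bases 31 to 60): ttacctgcgaacttgtgtttatAATAAAtg
RAMP1 A_23_P50946 (chr2:238820661-238820720, plus strand, bases 1 to 30): acctctggaaagggtcccagcctagactgc
The starts of the ADM2 probes lie 3497 bases apart on the genome, and only the downstream probe holds AATAAA. The files pair both with the same RefSeq transcript, and likewise the 2 EDN1 probes, whose starts lie 454 bases apart. By transcript accession, 15 of 17 probes matched a current RefSeq gene, all 15 with the same symbol, and the others kept the name in the array files.

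**Figure D1:**
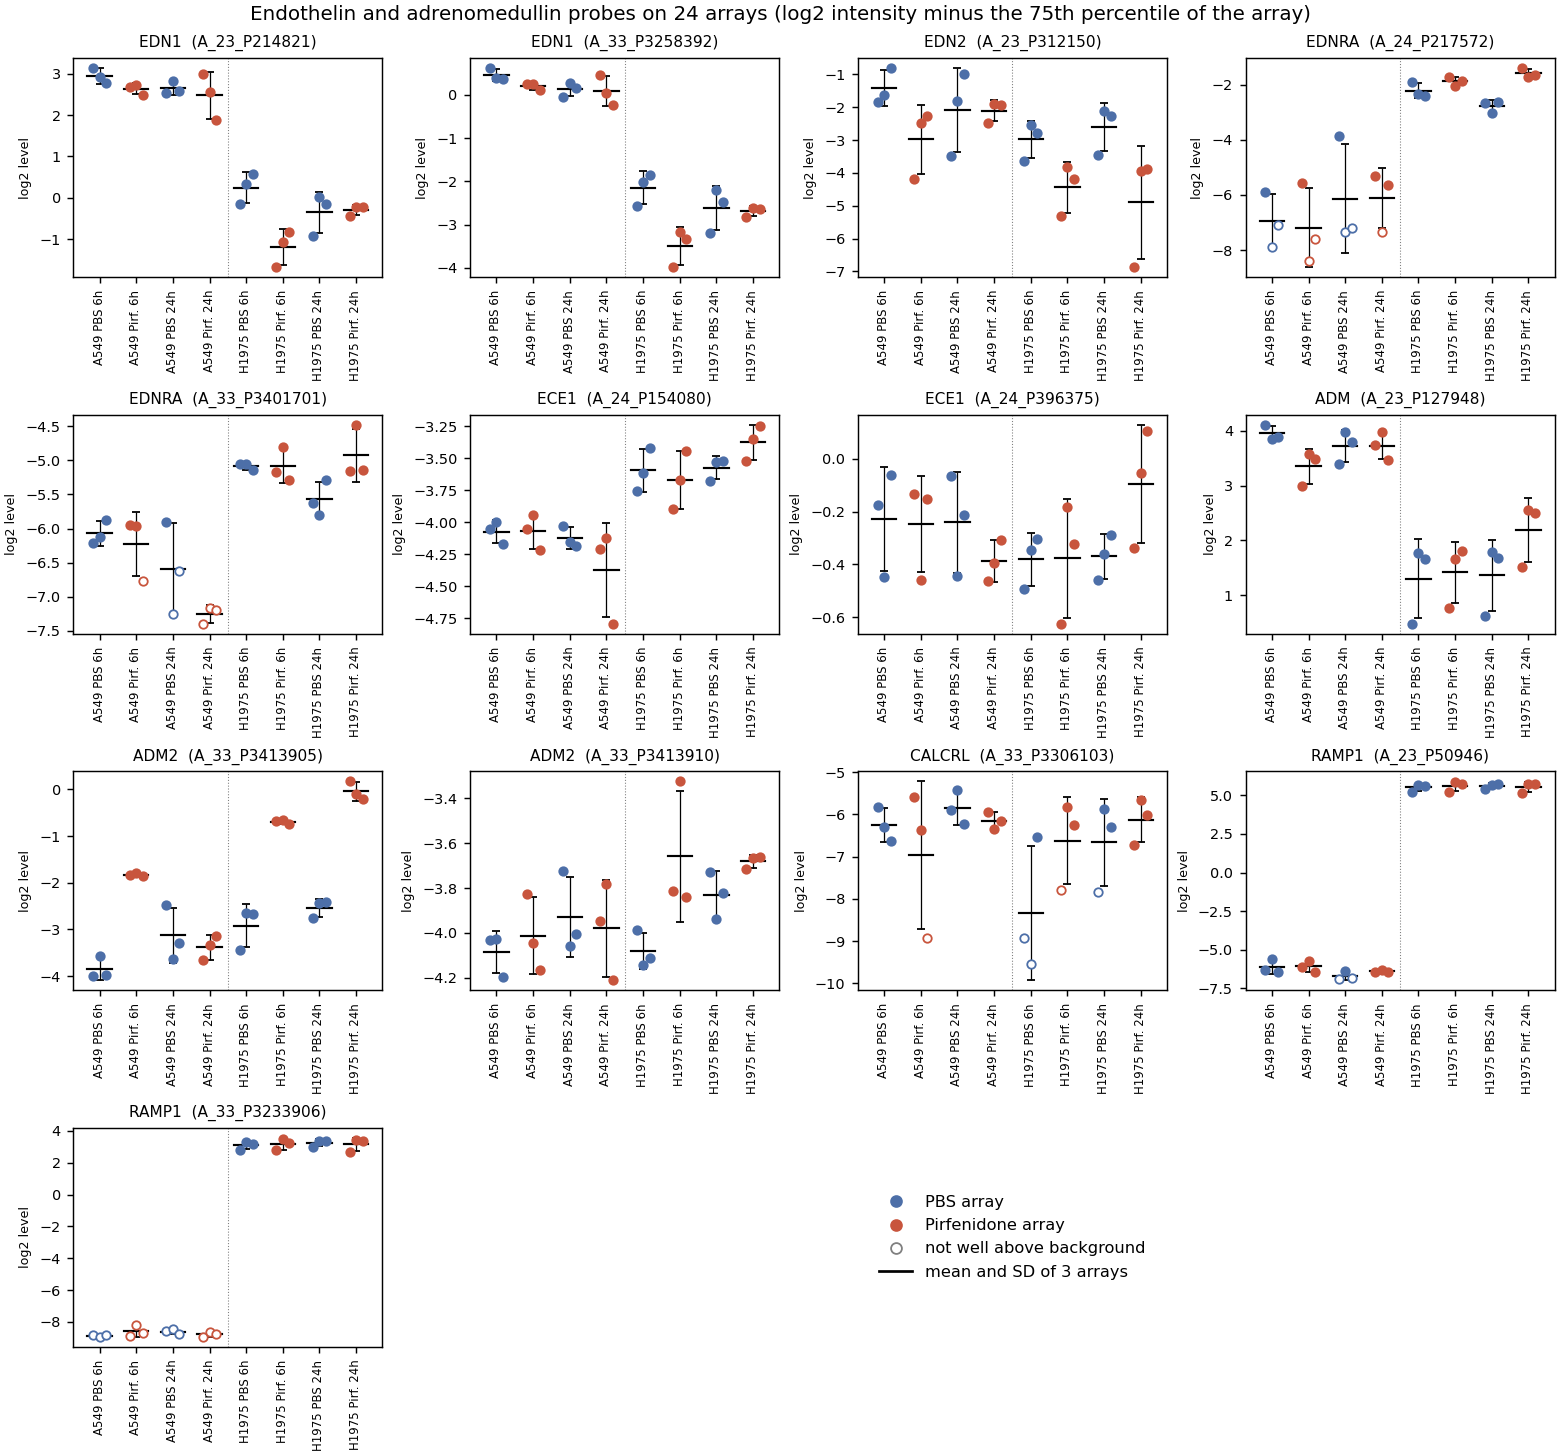
Log2 level of each tested probe on each array, relative to the 75th percentile of the array, by line, treatment and time. Points are arrays, open points were not well above background, and bars are the mean and SD of 3 arrays. The downstream ADM2 probe lies between -1.86 and -1.80 on the A549 Pirfenidone arrays at 6 h, against -4.0 to -3.57 with PBS.

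With Pirfenidone, the downstream ADM2 probe (A_33_P3413905) rose in A549 at 6 h, and no other tested member probe passed the test in A549. The upstream ADM2 probe differed by 0.07 in A549 at 6 h. In H1975 the downstream ADM2 probe was higher at both times. EDN1 was lower there at 6 h and overlapped with PBS at 24 h, and EDN2 was lower at both times without passing the test in the main fit. The receptor genes did not pass in the main fit in any of the 4 drug comparisons. With the date as a block, EDNRA (A_24_P217572) passed in H1975 at 24 h, and EDN2 passed in H1975 at both times.

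ADM2 is described first. In A549 at 6 h the log2 level of A_33_P3413905 was -3.57, -3.97 and -4.0 on the PBS arrays and -1.80, -1.86 and -1.83 on the Pirfenidone arrays. The groups did not overlap, and the SD of the Pirfenidone arrays was 0.03. The rise was 2.02 ± 0.24 on the log2 scale (SE, n = 3 per group, limma adjusted p = 0.000568), a fold of 4.06. It was 2.18, 1.77 and 2.11 within dates 1, 2 and 3, and it passed with the date as a block (limma adjusted p = 0.00164). It did not pass in a fit of these 6 arrays alone (limma adjusted p = 0.0579), nor by the methods' t-test after Benjamini-Hochberg adjustment. Without any 1 of the 6 arrays the limma adjusted p was 0.0019 to 0.00935. It was 1 of 13 member probes called, where 0.176% of all probes tested were called and 7.03% had Pirfenidone arrays above all PBS arrays.

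In A549 at 24 h the level was -3.62, -3.28 and -2.47 with PBS and -3.34, -3.15 and -3.66 with Pirfenidone. The groups overlapped, and the difference of -0.26 ± 0.24 (SE) did not pass (limma adjusted p = 1). Without the date 1 pair it was 0.21 (limma adjusted p = 0.906), so the sign turned without that pair. The share of all probes called in this comparison was 0.0126%.

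In H1975 at 6 h the level was -3.44, -2.64 and -2.67 with PBS and -0.65, -0.73 and -0.69 with Pirfenidone. At 24 h it was -2.44, -2.41 and -2.76 with PBS and -0.11, -0.20 and 0.17 with Pirfenidone. The groups did not overlap at either time, as for 10.6% and 16.3% of all probes in this direction, which is the pattern the gene was chosen for. The log2 differences were 2.23 at 6 h and 2.49 at 24 h, folds of 4.69 and 5.62. Within dates they ran from 1.94 to 2.76 at 6 h and from 2.21 to 2.93 at 24 h. The levels order the 8 groups from A549 PBS at 6 h, the lowest mean at -3.85, to H1975 Pirfenidone at 24 h, the highest at -0.05. The A549 24 h groups and the PBS groups of H1975 lie close together, at means of -3.38, -3.13, -2.92 and -2.54, with overlapping arrays between each neighbor in that order.

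The upstream ADM2 probe gave another picture. A_33_P3413910 lay between -4.21 and -3.72 on all 12 A549 arrays and between -4.14 and -3.32 on all 12 H1975 arrays. All were well above background, so a level was measured on each. In A549 its difference was 0.07 at 6 h (95% confidence interval -0.23 to 0.37) and -0.05 at 24 h (-0.35 to 0.25). In H1975 the difference was 0.42 at 6 h, or 0.85 after normexp background correction, and 0.15 at 24 h. With that correction the median of all probes in H1975 at 6 h was 0.29, against 0.05 in the main fit. Across the 24 arrays, with each line's mean subtracted, the probes correlated with a Pearson r of 0.511. This is a description over arrays that share lines, slides and dates. Averaging both probes gave a rise of 1.05 in A549 at 6 h (limma adjusted p = 0.00355).

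The promoter of ADM2 is shown because the downstream probe of the gene rose in A549 at 6 h. It covers 250 bases before and 30 after the start that RefSeq gives (GRCh38.p14, chr22:50481293-50481572, plus strand).
ADM2 promoter: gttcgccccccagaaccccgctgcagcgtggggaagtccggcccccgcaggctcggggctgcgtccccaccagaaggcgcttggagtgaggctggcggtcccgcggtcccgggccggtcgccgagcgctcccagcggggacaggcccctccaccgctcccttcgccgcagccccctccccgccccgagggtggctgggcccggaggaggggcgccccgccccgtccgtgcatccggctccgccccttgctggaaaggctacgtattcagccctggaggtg
Both strands were searched for TGATGNAA, letters like those of the amino acid response element, for TGANTCA, letters of an AP-1 site, and for ACGTG, the core of a hypoxia response element. None of the 3 was in the window from 250 bases before to 30 after the start. Of 35116 promoters searched over the same window, 3.45% held TGATGNAA, 7.35% held TGANTCA and 20.2% held ACGTG. Promoters were found for 8 of the 10 genes, 14 in all, and RAMP1 and RAMP2 had no entry matched.

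EDN1, the endothelin gene of most epithelial and endothelial cells, is measured by 2 probes that moved together, with a Pearson r of 0.973 over the 24 arrays after subtraction of each line's mean. In H1975 at 6 h the level of A_23_P214821 was -0.16, 0.32 and 0.57 with PBS and -1.07, -0.84 and -1.69 with Pirfenidone. All Pirfenidone arrays lay below all PBS arrays, the pattern EDN1 was chosen for. The log2 difference was -1.44, and -1.35 for A_33_P3258392, folds of 2.72 and 2.55. Within dates 1, 3 and 4 the first probe differed by -1.53, -1.40 and -1.41. After normexp background correction the second probe differed by -0.61. In that setting the median of all probes in this comparison was 0.29, against 0.05 in the main fit.

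At 24 h in H1975 the EDN1 level was 0.02, -0.15 and -0.92 with PBS and -0.22, -0.22 and -0.44 with Pirfenidone. The arrays overlapped, and the differences were 0.06 and -0.08 for the 2 probes. The difference between 24 h and 6 h in the drug's effect was therefore 1.5 for the first probe and 1.27 for the second, again values of the contrast that chose the gene.

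In A549, which the choice of EDN1 did not use, the level at 6 h was 2.92, 2.77 and 3.14 with PBS and 2.74, 2.48 and 2.69 with Pirfenidone. The groups did not overlap, as for 8.24% of all probes tested in this direction, but the difference was small. It was -0.31 ± 0.28 for the first probe and -0.26 ± 0.25 for the second (SE, limma adjusted p = 1 for both). With the date as a block the limma adjusted p was 0.53 and 0.565. At 24 h the PBS arrays were at 2.84, 2.58 and 2.52 and the Pirfenidone arrays at 2.56, 1.88 and 3.0, which overlap. The differences were -0.17 and -0.04, and -0.49 and -0.32 without the date 1 pair, none of which passed.

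The promoter of the most downstream of the 3 EDN1 starts in RefSeq is shown for comparison (GRCh38.p14, chr6:12290111-12290390, plus strand), with the letters of the ACGTG motif, here on the minus strand, in capitals.
EDN1 promoter: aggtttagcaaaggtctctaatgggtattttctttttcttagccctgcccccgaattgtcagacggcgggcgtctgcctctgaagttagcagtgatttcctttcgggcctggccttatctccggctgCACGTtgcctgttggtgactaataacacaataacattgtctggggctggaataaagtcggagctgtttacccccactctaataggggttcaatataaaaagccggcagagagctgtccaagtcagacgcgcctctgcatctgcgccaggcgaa
The match spans positions -123 to -119 from the start site. TGATGNAA and TGANTCA were not in this window. The promoter of the most upstream EDN1 start, not shown, also held ACGTG, at -240 to -236 and at -93 to -89. Of the other members with a promoter, EDNRB held ACGTG and CALCRL held TGATGNAA. A match is a match of letters and was not tested as a binding site.

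EDN2, the second endothelin gene, had no part in the choice of the set by its values. In H1975 at 24 h its level was -2.12, -2.26 and -3.45 with PBS and -3.94, -3.87 and -6.88 with Pirfenidone. The groups did not overlap, as for 15.6% of all probes in this direction, and the Pirfenidone array of date 1 lay far below the other Pirfenidone arrays. The difference was -2.28 ± 0.74 (SE, n = 3 per group, limma adjusted p = 0.0731), a fold of 4.86 that missed the threshold. Within dates 1, 3 and 4 it was -3.43, -1.81 and -1.61, lower in 3 of 3 pairs. With the date as a block it passed (limma adjusted p = 0.00234), and it also passed without the A549 date 1 pair (limma adjusted p = 0.0458). That A549 pair enters this H1975 comparison only through the shared estimate of the spread. It stood apart partly by its EDN2 value, so the pass without it is no independent support. Without the Pirfenidone array of date 1, replicate 3, the difference was -1.29 (limma adjusted p = 0.369).

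At 6 h in H1975 EDN2 was at -3.63, -2.54 and -2.78 with PBS and at -3.82, -4.19 and -5.31 with Pirfenidone. The groups did not overlap, as for 7.16% of all probes in this direction. The difference was -1.46 ± 0.74 (SE, limma adjusted p = 0.503), and within dates it was -1.68, -1.28 and -1.41. It passed with the date as a block (limma adjusted p = 0.0386). After normexp background correction the difference was -0.63, where the median of all probes was 0.29, against 0.05 in the main fit.

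In A549 EDN2 was at -1.63, -0.81 and -1.84 with PBS at 6 h and at -2.48, -2.27 and -4.20 with Pirfenidone. The difference was -1.56 ± 0.74 (SE, limma adjusted p = 0.83), with -2.36, -0.85 and -1.46 within dates 1, 2 and 3. It did not pass with the date as a block (limma adjusted p = 0.0665). At 24 h the arrays overlapped, and the difference was -0.02, or -0.53 without the date 1 pair. The drug's effect on EDN2 at 24 h was more negative in H1975 than in A549, with a difference of -2.27, which did not pass (limma adjusted p = 0.392) but did with the date as a block (limma adjusted p = 0.0364). Without the A549 date 1 pair it was -1.75 (limma adjusted p = 0.87).

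**Figure D2:**
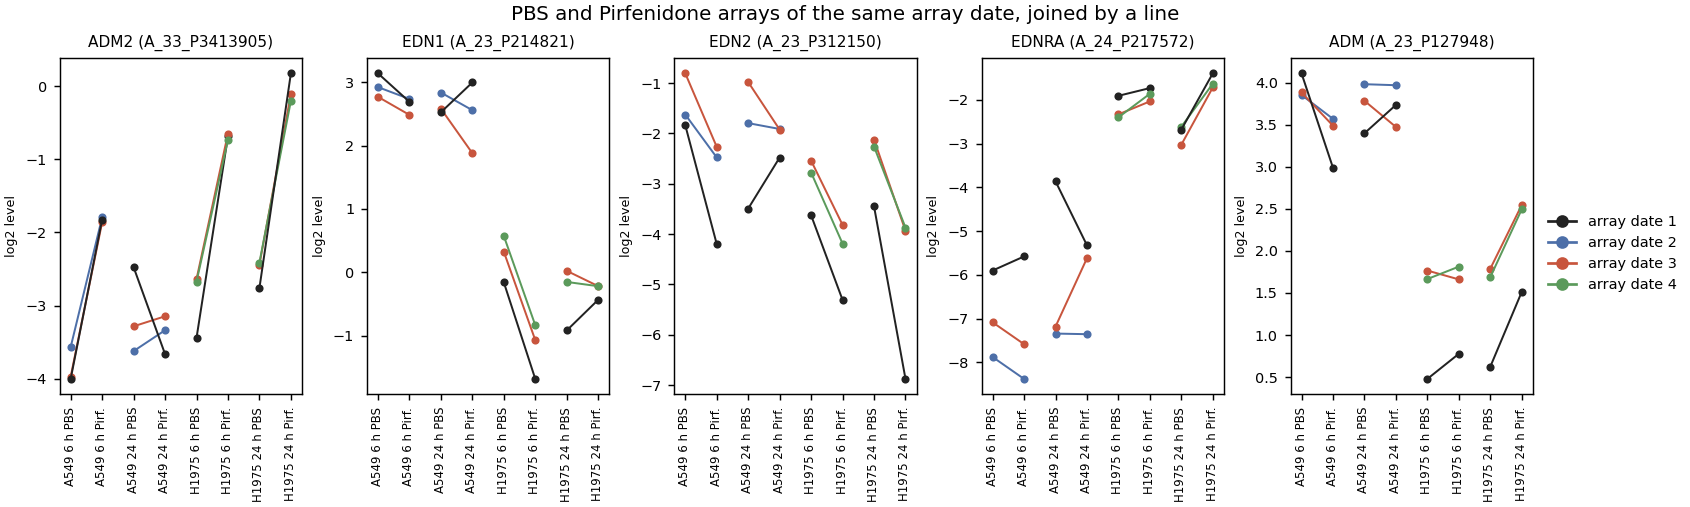
Log2 level of 5 member probes with PBS and with Pirfenidone, by line and time, on arrays of the same array date joined by a line and colored by date. EDN2 was lower with Pirfenidone in 3 of 3 pairs at 6 h in each line and again at 24 h in H1975, and the A549 pair of date 1 at 24 h runs against the other A549 pairs for ADM2, EDN1 and EDN2.

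ADM, adrenomedullin, a gene known to respond to low oxygen, has 1 probe. In A549 at 6 h it was at 3.85, 3.88 and 4.11 with PBS and at 3.57, 3.49 and 2.99 with Pirfenidone. These groups did not overlap, as for 8.24% of all probes in this direction, with a difference of -0.60 ± 0.37 (SE, limma adjusted p = 1) that was negative in 3 of 3 pairs. With the date as a block the limma adjusted p was 0.0602. At 24 h in A549 the difference was 0.00, with a 95% confidence interval from -0.77 to 0.78, and -0.16 without the date 1 pair.

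In H1975 at 24 h ADM was at 1.79, 1.69 and 0.62 with PBS and at 2.55, 2.49 and 1.51 with Pirfenidone. The arrays overlapped because those of date 1 were the lowest in each group. The difference was 0.82 ± 0.37 (SE, limma adjusted p = 0.202), and within dates 1, 3 and 4 it was 0.89, 0.76 and 0.81. With the date as a block the limma adjusted p was 0.00306, and the size stayed under the fold of 2 that a call needs. At 6 h in H1975 the difference was 0.11, with an interval from -0.67 to 0.89. EDN2 and ADM thus had opposite signs in H1975 at 24 h in 3 of 3 pairs.

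EDNRA encodes the endothelin receptor of smooth muscle and of several tumor cells. Its probe A_24_P217572 in H1975 at 24 h was at -3.02, -2.61 and -2.68 with PBS and at -1.71, -1.63 and -1.39 with Pirfenidone. The groups did not overlap, as for 16.3% of all probes in this direction, and the difference was 1.19 ± 0.78 (SE, limma adjusted p = 0.405). Within dates 1, 3 and 4 it was 1.29, 1.31 and 0.99. It passed with the date as a block (limma adjusted p = 0.0294) and in a fit of these 6 arrays alone (limma adjusted p = 0.045). The shared estimate of the spread for this probe includes A549 arrays on which it was near background, with SDs of up to 1.97 in a group, against 0.27 or less in H1975.

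The other EDNRA probe, A_33_P3401701, differed by 0.65 in the same comparison (limma adjusted p = 0.174). It too was higher in 3 of 3 pairs. Over all 24 arrays the EDNRA probes correlated weakly, with an r of 0.132 after subtraction of each line's mean. At 6 h in H1975 the differences were 0.34 and 0.00.

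ECE1 is the endothelin-converting enzyme. Its 2 probes differed by between -0.25 and 0.27 in the 4 comparisons, and none passed. In H1975 at 24 h the 95% confidence intervals reached from -0.12 to 0.53 and from -0.03 to 0.58. RAMP1 differed by between -0.16 and 0.30 over its 2 probes, none of which passed. CALCRL, whose only tested probe (A_33_P3306103) was well above background on 11 of 12 A549 arrays and 8 of 12 H1975 arrays, had wide intervals. In H1975 at 6 h its difference was 1.72, with an interval from 0.08 to 3.36 (limma adjusted p = 0.413). Only 1 of 3 PBS arrays and 2 of 3 Pirfenidone arrays of that comparison were well above background.

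**Figure D3:**
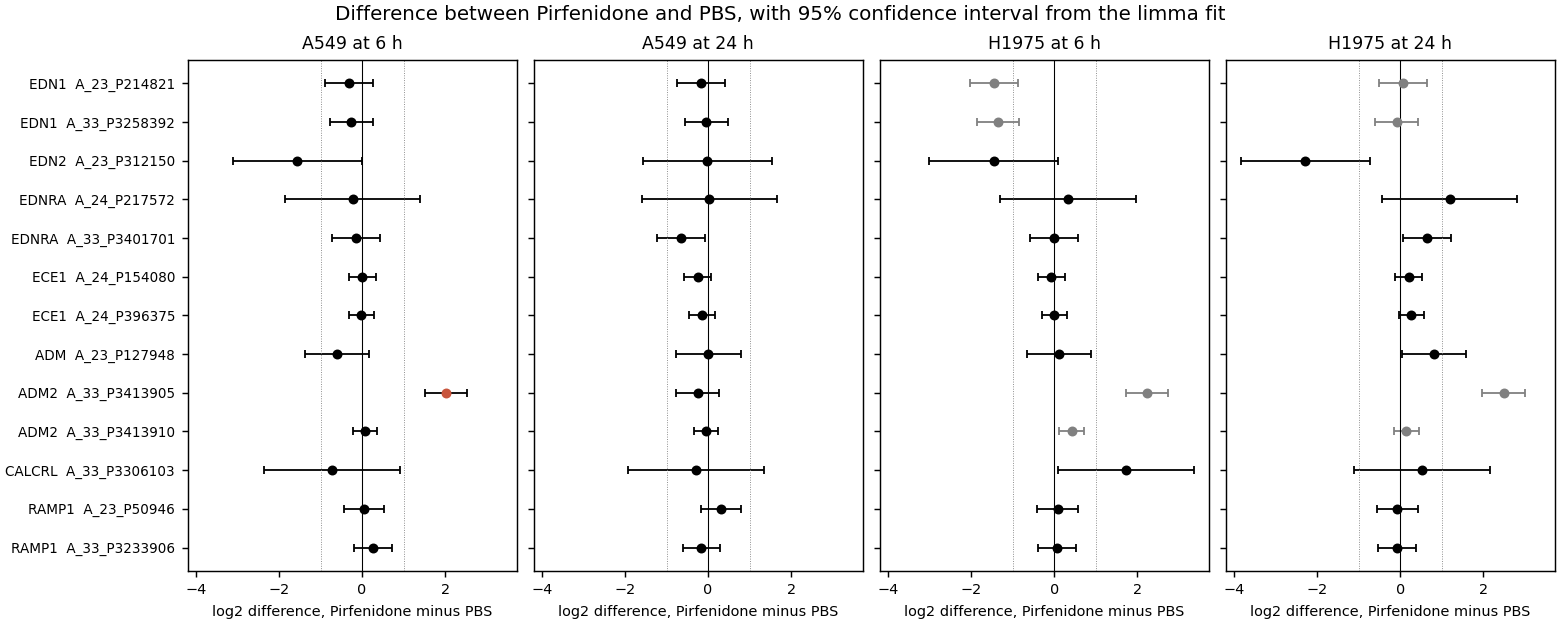
Log2 difference between Pirfenidone and PBS for the 13 tested probes in each line and time, with its 95% confidence interval from the limma fit. The red point passed the test, gray points are EDN1 and ADM2 in H1975, which were chosen for these values and not tested, and dotted lines mark differences of -1 and 1. Only ADM2 in A549 at 6 h is red, at 2.02.

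Counted over the probes that could be tested, 0 of 13 were called in A549 at 24 h, where 0.0126% of all probes were. In H1975, with EDN1 and ADM2 left out, 0 of 9 were called at 6 h and 0 of 9 at 24 h. The share of all probes called was 0.491% at 6 h and 1.89% at 24 h. The median log2 difference of the members was -0.15 in A549 at 6 h and -0.15 at 24 h, against -0.01 and -0.02 for all probes tested. In H1975, over the 9 probes, it was 0.06 and 0.27, against 0.05 and 0.02. Differences between the lines in the drug's effect passed for 0 of 9 probes at 6 h and at 24 h, with 0.0336% and 0.193% of all probes called.

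The effect on ADM2 in A549 was smaller at 24 h than at 6 h. The difference between the times was -2.28 ± 0.34 (SE, limma adjusted p = 0.0453) for A_33_P3413905, the only member among 13 called, where 0.0294% of all probes were called. Without the A549 date 1 pair at 24 h it was -1.81 (limma adjusted p = 0.0712). In H1975 the same difference was 0.26, a description, and 0 of the 9 other probes were called, where 0.0042% of all probes were. This comparison of times was added after the values were seen.

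Genes of the same pathways were taken from a list of 45: related peptides and receptors, enzymes of peptide processing and clearance, and signal transducers of these receptors, each by its brightest probe. Of these, 38 were tested. In the 4 drug comparisons only PLCB4, a phospholipase that acts below Gq-coupled receptors such as the endothelin receptors, passed. It fell by 1.22 ± 0.17 in H1975 at 24 h (SE, limma adjusted p = 0.000741), where 1.89% of all probes were called, and was well above background on 10 of 12 H1975 arrays. In that comparison the 27 signal transducers had a median of 0.24. EDN3, the remaining endothelin gene, did not pass in any drug comparison.

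The genes whose levels followed EDN1 and ADM2 most closely over the 24 arrays, after subtraction of each line's mean, are given as a description with no test. They were picked on these same arrays, so differences like those of EDN1 and ADM2 follow from the choice. For ADM2 (A_33_P3413905) they were SLC1A4, a transporter of neutral amino acids, ULBP1, a ligand of the receptor NKG2D, GPT2, an alanine transaminase, ARHGEF2, and CHAC1, an enzyme that breaks down glutathione. Pearson r was 0.969, 0.966, 0.960, 0.958 and 0.954 in that order. At 6 h CHAC1 was higher by 2.29 in A549 and by 3.20 in H1975, and ULBP1 by 2.04 and 1.85. At 24 h CHAC1 differed by -0.31 in A549 and by 2.77 in H1975, as ADM2 differed by -0.26 and 2.49.

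For EDN1 (A_23_P214821) the closest were ANKRD1, a nuclear ankyrin repeat protein, with an r of 0.842, BCL2L1, an inhibitor of apoptosis, with 0.816, SMURF2, a ubiquitin ligase of the TGF-beta pathway, with 0.815, PP7080 with 0.796 and CDC42EP2, an effector of CDC42, with 0.794. With Pirfenidone in H1975 at 6 h ANKRD1 differed by -1.01, against -1.44 for EDN1. At 24 h in H1975 it differed by 0.37, and in A549 by -0.55 at 6 h and -0.48 at 24 h.

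**Figure D4:**
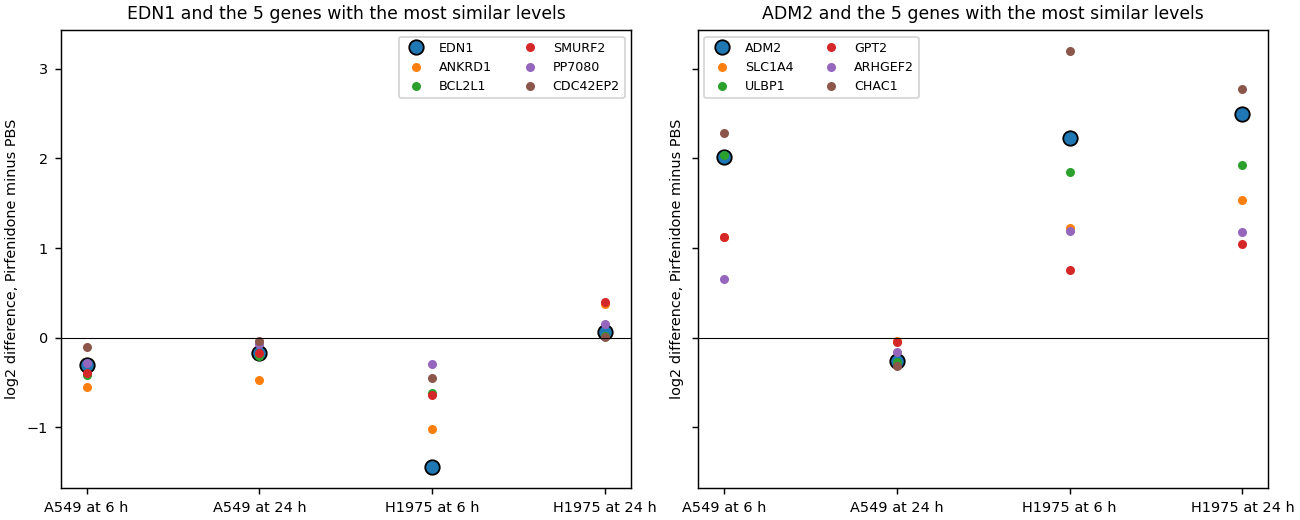
Log2 difference between Pirfenidone and PBS for EDN1 (left) and ADM2 (right), as large points, and for the 5 genes whose levels over 24 arrays were most like each. The genes near ADM2 lie between -0.31 and -0.04 in A549 at 24 h, where ADM2 is at -0.26. Being picked on these same arrays, the genes have similar differences by that choice.

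In PBS, H1975 expressed less EDN1 and ADM and more EDNRA and RAMP1 than A549, at both times. At 6 h 7 of 13 probes were called, 3 higher and 4 lower in H1975, and at 24 h 7 of 13, 4 higher and 3 lower. Of all probes tested, 32.4% were called at 6 h and 32.9% at 24 h. Without overlap of the PBS arrays, 6 member probes were higher and 4 lower at 6 h, against 34.7% and 31.6% of all probes, and 5 were higher and 3 lower at 24 h, against 34.5% and 29.2%. EDN1 and ADM2 were chosen on values that include the H1975 PBS arrays, so their line differences are not independent of that choice and are given without p-values. Without these genes 5 of 9 probes were called at 6 h, 3 higher and 2 lower, and 5 of 9 at 24 h, 4 higher and 1 lower. Of the probes called, RAMP1 A_33_P3233906 and EDNRA A_24_P217572 entered the test only through H1975 groups. Their calls are not independent of that filter. Line and slide cannot be told apart because no slide held both lines, but array dates 1 and 3 held both and give the difference within a date.

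RAMP1 had the largest difference among the members. On all 12 H1975 arrays A_23_P50946 lay between 5.17 and 5.85, with a median of 5.67, and on the 12 A549 arrays between -6.88 and -5.62, with a median of -6.38. The second probe, A_33_P3233906, lay between 2.70 and 3.5 in H1975 and was well above background on 0 of 12 arrays in A549. In the main processing H1975 was, for that probe, at least 1010-fold higher at 6 h and at least 1000-fold higher at 24 h. These bounds take A549 at the lowest signal among probes well above background on each array. They depend on the processing: over the alternative settings the fitted log2 difference was as low as 8.11 at 6 h and 8.26 at 24 h. The probe entered the test only through its H1975 arrays, so no p-value is given for it. A_23_P50946 differed by 11.63 ± 0.23 at 6 h and 12.31 ± 0.23 at 24 h (SE, limma adjusted p = 1.28e-18 and 5.92e-19). It was well above background on 3 of 3 A549 PBS arrays at 6 h and on 1 of 3 at 24 h. Within dates 1 and 3 it differed by 11.53 and 12.11 at 6 h.

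CALCRL and CALCR are the receptors with which RAMP1 can pair. CALCRL in PBS at 6 h was at -6.31, -6.62 and -5.82 in A549 and at -8.94, -9.55 and -6.54 in H1975. The difference, H1975 minus A549, was -2.09 (SE 0.78, limma adjusted p = 0.0277), although the arrays overlapped and only 1 of 3 H1975 arrays was well above background. After normexp background correction the difference was -0.71 (limma adjusted p = 0.312), and without any 1 of 4 of the PBS arrays it no longer passed. At 24 h it differed by -0.82 (limma adjusted p = 0.384). CALCR, the calcitonin receptor, was well above background on 12 of 12 H1975 arrays and 0 of 12 A549 arrays. RAMP2 and the 2 other CALCRL probes were well above background on 0 of 24 arrays, and so was RAMP3 of the pathway list.

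EDN1 in PBS was lower in H1975, with differences of -2.70 ± 0.28 at 6 h and -3.0 ± 0.28 at 24 h for A_23_P214821 (SE), folds of 6.49 and 7.99. For A_33_P3258392 the values were -2.60 and -2.75. The lowest of the 12 A549 arrays, at 1.88, was above the highest of the 12 H1975 arrays, at 0.57. Within dates 1 and 3 the difference was -3.30 and -2.45 at 6 h.

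ADM in PBS was lower in H1975, with differences of -2.65 ± 0.37 at 6 h (SE, limma adjusted p = 5.23e-06) and -2.36 ± 0.37 at 24 h (limma adjusted p = 2.07e-05), folds of 6.26 and 5.12. On all arrays it ran from 2.99 to 4.11 in A549 and from 0.48 to 2.55 in H1975, with no overlap. Within dates 1 and 3 the difference was -3.63 and -2.12 at 6 h. The H1975 arrays of date 1 had the lowest ADM value in each of their 4 groups.

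EDNRA was the endothelin receptor gene with a level on every H1975 array. A_24_P217572 lay between -3.02 and -1.39 there and between -8.38 and -3.86 in A549, where it was well above background on 5 of 12 arrays. In PBS it was higher by 4.75 ± 0.78 at 6 h and by 3.36 ± 0.78 at 24 h (SE), although only 1 of 3 A549 PBS arrays at each time was well above background. The probe entered the test only through its H1975 groups, so no p-value is given for these line differences. After normexp background correction the values were 2.88 and 1.89. Within dates 1 and 3 it differed by 1.18 and 4.16 at 24 h, because the A549 PBS array of the date 1 pair, at -3.86, was the highest of its line. Without the A549 date 1 pair the 24 h difference was 4.49. The second EDNRA probe was higher by 0.99 at 6 h, just under the fold limit, and by 1.02 at 24 h (limma adjusted p = 0.00375), or 1.36 without the A549 date 1 pair. With normexp background correction the 24 h value was 0.10. EDNRB was well above background on 0 of 24 arrays.

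EDN2 in PBS differed by -1.56 at 6 h and by -0.52 at 24 h, neither of which passed (limma adjusted p = 0.0794 and 0.566). Without the A549 date 1 pair the 24 h value was -1.22 (limma adjusted p = 0.197). The 6 h value passed with the date as a block (limma adjusted p = 0.0417), with the replicate block (limma adjusted p = 0.0169), with the slide as a block and in a fit of those arrays alone. ADM2 (A_33_P3413905) in PBS differed by 0.93 at 6 h and by 0.59 at 24 h, or 0.92 without the A549 date 1 pair, all under the fold limit. Within dates 1 and 3 the 24 h value was -0.29 and 0.84. ECE1 differed by 0.48 and 0.55 for A_24_P154080 and by -0.15 and -0.13 for A_24_P396375, so its probes went opposite ways and neither reached the fold limit.

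**Figure D5:**
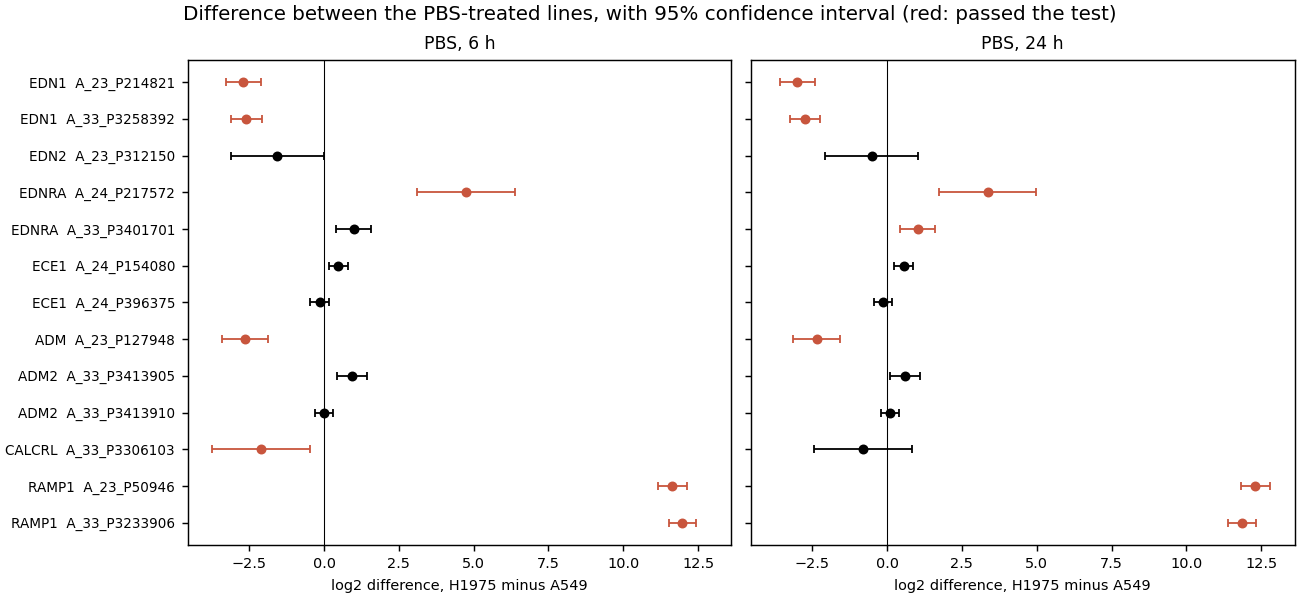
Log2 difference between PBS-treated H1975 and A549 for the 13 tested probes at 6 h and 24 h, with its 95% confidence interval from the limma fit. Red points passed the test. Both RAMP1 probes lie between 11.63 and 12.31, with the A549 level of the lower one measured under the background limit.

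In the pathway list, 13 of 38 tested genes were called between the lines at 6 h, 8 higher and 5 lower in H1975, where 32.4% of all probes were called. CALCR was among them, with no A549 array well above background. PAM, which amidates peptides such as adrenomedullin at their end, was higher by 2.77 ± 0.26 (SE, limma adjusted p = 2.27e-08). ECE2, a relative of ECE1, was higher by 1.03 (limma adjusted p = 5.49e-07). Among the signal transducers 5 of 27 were higher and 5 lower, with differences of -2.33 for PLCB4 and 1.94 for ITPR1, a calcium channel of the endoplasmic reticulum. At 24 h, where 32.9% of all probes were called, 1 of 5 related peptides and receptors was higher and 1 lower. Of the 6 processing genes 1 was higher, against 2 at 6 h, and of the 27 signal transducers 4 were higher and 5 lower. The related gene that was lower was ACKR3, a receptor that takes up adrenomedullin and chemokines, with a difference of -1.82 (limma adjusted p = 0.0287). ACKR3 was not called at 6 h.

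Time in PBS called 0 of 13 members in each line, where 0.109% of all probes in A549 and 0.315% in H1975 were called. The largest differences in A549 were 0.83 for EDNRA (A_24_P217572) and 0.72 for ADM2 (A_33_P3413905, limma adjusted p = 0.387). Without the date 1 pair these were -0.31 and 0.39. In H1975 the largest was 1.68 for CALCRL (limma adjusted p = 0.453).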

How the data were processed

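Total RNA of A549 and H1975 cells was labelled with Cy3 and hybridised to Agilent 1-color arrays, 24 in all and 3 in each of 8 groups, grouped by their labels. Scanner output as deposited gives a processed signal intensity for each spot, from which the authors' software, Agilent Feature Extraction, had already subtracted background. The authors' deposited value table holds log2 values, centered per probe on a median of nearly 0, and was used as an alternative: its differences between arrays correlated with those of the scanner files with an r of 1. Spot intensities were put on the log2 scale, centered on the 75th percentile of each array and then averaged per probe, leaving out outlier spots. Control spots were left out. On each array 62.7 to 69.5% of probes were well above background, none was saturated, and the number of arrays limits the precision.

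A single limma fit (limma 3.58.1, R 4.3.3) of the 8 groups was made over 23827 probes, with Benjamini-Hochberg adjustment over all of them in each comparison. It was tested on simulated data. The methods state a moderated t-test with family-wise control by permutation, which 3 against 3 arrays cannot pass. Alternatives were normexp background correction (offset 50), quantile normalization, other filters, the replicate number, slide or array date as a block, only the arrays compared, gene means, Holm adjustment, the methods' t-test, and each array or the A549 24 h pair of replicate 3 left out.

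Every probe of the 10 genes is reported. Further genes are the 5 nearest in pattern to EDN1 and to ADM2, and genes called from a pathway list, at most the 8 largest per comparison. The members and lists were chosen with earlier results of these data known, and the comparisons of the drug's effect between times were added after values were seen. Exon and UTR positions of the probes were not analysed here.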

Additional observations from a re-analysis of the deposited data

Results flagged for a closer look

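The effect of Pirfenidone on ADM2 (A_33_P3413905) differed between the times in A549, by a comparison that was added after the values were seen. It was -2.28 at 24 h relative to 6 h on the log2 scale (SE 0.34, 95% confidence interval -3.0 to -1.55, limma adjusted p = 0.0453). The p-value is therefore not that of an independent test. With the array date as a block the limma adjusted p was 0.0353. It did not pass with the replicate or the slide as a block, normexp, no filter on dim probes, only the arrays compared, gene means or Holm adjustment. Without the A549 24 h pair of replicate 3 the value was -1.81 (limma adjusted p = 0.0712). For the upstream ADM2 probe (A_33_P3413910) the difference in the main fit was -0.12.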

How the results depend on the processing

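Counts of called member probes moved by over 1.5 times under these settings. In A549 at 6 h, 1 became 0 when only the arrays compared were fitted and by the methods' t-test. In H1975 at 6 h, 0 became 1 with the array date as a block. In H1975 at 24 h, 0 became 1 with the replicate block, with the slide as a block, with only the arrays compared and without the A549 24 h pair of replicate 3, and 2 with the date as a block. Between the lines at 6 h, 7 became 3 when probes had to exceed background on each of the 24 arrays, and at 24 h 7 became 3 with that filter and 4 with gene means and with Holm adjustment, where fewer probes or a stricter adjustment enter by construction. The drug effect's difference between lines at 24 h went from 0 to 1 with the date as a block. The ADM2 difference between times in A549 went from 1 to 0 with normexp, no filter on dim probes, the replicate block, the slide block, only the arrays compared, gene means, Holm adjustment and without the A549 24 h pair, and ranged from 0 to 1 with single arrays left out. Other causes were not tested. No member value called in the main setting reversed.

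Replicate numbers were not taken as pairs, because not every same-numbered pair of arrays deviated together. The correlations by number were 0.70, 0.58 and 0.64 for A549 after 6 h and 0.39, 0.08 and -0.10 after 24 h. For H1975 they were -0.48, 0.43 and -0.68 after 6 h and 0.46, 0.53 and 0.72 after 24 h. Number and date give the same pairs except in H1975 at 6 h, where arrays of the same date correlated at 0.82, 0.50 and 0.70. With the replicate block EDN2 in H1975 at 24 h passed (limma adjusted p = 0.0179).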
